A study of Mus musculus with 12 samples.

Results

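The protein-coding genes Slc38a5, Tgfbi, Serpina3m, Ufsp2, Card6 and Zfp560 are 6 of 35976 gene symbols counted in mouse embryonic stem cells. They were named for standing lower than in Tet1KO cells both where Tet2 carried N1300T and where it was knocked out. They were chosen by these measured levels against Tet1KO, so the values of that contrast are given as a description with no test. The filter on low counts kept 16014 genes, all 6 of these among them. All 6 stood lower in both genotypes, 5 of them by more than 2-fold in both, and Zfp560 stood less than 2-fold lower in DKO.

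RNA was sequenced with paired ends from V6.5 mouse embryonic stem cells kept on gelatin in serum medium with LIF, the GSK3 inhibitor CHIR99021 and the MEK inhibitor PD0325901. The 12 libraries form 4 groups of 3 lettered A, B and C: N1300T 49 and N1300T 81 (both labelled Tet1KO Tet2 N1300T), DKO (Tet1 Tet2 DKO, numbered 41) and Tet1KO (Tet1 KO). All 4 groups thus lack Tet1 by their labels, and no group with Tet1 intact is used here. The series compares cells with Tet2 carrying N1300T, knocked out or intact. What 41, 49 and 81 stand for is not given, DKO and Tet1KO are 1 set of 3 libraries each, and genotype cannot be told apart from other properties of those cells. Separate cultures are not stated for the libraries of a group, so the p-values cover only the spread between these samples.

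TET1 and TET2 are dioxygenases that oxidise 5-methylcytosine in DNA, a step towards removing methylation from promoters and enhancers. Both are abundant in embryonic stem cells, where methylated CpG-rich promoters are usually silent. The 6 genes belong to unrelated pathways. Slc38a5 is an amino acid transporter, Tgfbi and Serpina3m are secreted proteins, Ufsp2 is a protease of the UFM1 modifier system, Card6 carries a caspase recruitment domain and Zfp560 is a zinc finger protein.

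Library totals ran from 31515011 counts in N1300T 49 C to 57054862 counts in DKO A. Levels are in CPM, reads scaled to a common library size with TMM factors, given as mean ± SD with n = 3, or n = 6 where both N1300T sets are joined. Tet2 had 123 to 145 CPM in N1300T 49, 130 to 155 CPM in N1300T 81, 92 to 97.9 CPM in DKO and 142 to 181 CPM in Tet1KO. Tet1 had 147 to 176, 137 to 170 and 168 to 180 CPM in N1300T 49, N1300T 81 and DKO and 131 to 174 CPM in Tet1KO, so a Tet1 transcript was still counted in each group. A total over the gene cannot reveal a small deletion or a codon change. The 10 embryonic stem cell markers (Pou5f1, Sox2, Nanog and others) summed to 7672 to 8122, 7498 to 8033 and 7018 to 7489 CPM in N1300T 49, N1300T 81 and DKO and to 7665 to 7850 CPM in Tet1KO.

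Promoter sequences are shown because CpG dinucleotides are where TET enzymes act, and because the CpG content of these promoters ranges from moderate to high. RefSeq gave an entry for 4 of the 6 genes on build GRCm38.p6, from 250 bases before the transcription start to 50 bases after it. Each is written 5′ to 3′ on the strand of the gene, with every CG in capitals. Slc38a5 lies at chrX:8271131-8271430 on the plus strand, Tgfbi at chr13:56609336-56609635 on the plus strand, Ufsp2 at chr8:45975278-45975577 on the plus strand and Zfp560 at chr9:20385109-20385408 on the minus strand.
Slc38a5: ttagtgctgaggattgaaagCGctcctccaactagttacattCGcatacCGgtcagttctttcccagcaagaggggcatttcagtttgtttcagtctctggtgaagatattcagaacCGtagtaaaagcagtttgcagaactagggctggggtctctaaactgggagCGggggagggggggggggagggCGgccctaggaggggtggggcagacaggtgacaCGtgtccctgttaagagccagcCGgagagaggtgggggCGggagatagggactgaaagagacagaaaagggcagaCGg
Tgfbi: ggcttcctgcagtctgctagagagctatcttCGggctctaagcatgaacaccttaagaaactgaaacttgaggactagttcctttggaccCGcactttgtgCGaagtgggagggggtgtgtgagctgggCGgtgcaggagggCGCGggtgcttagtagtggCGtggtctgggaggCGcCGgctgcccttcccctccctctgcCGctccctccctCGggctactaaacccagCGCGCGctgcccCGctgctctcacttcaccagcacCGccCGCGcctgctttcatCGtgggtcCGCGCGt
Ufsp2: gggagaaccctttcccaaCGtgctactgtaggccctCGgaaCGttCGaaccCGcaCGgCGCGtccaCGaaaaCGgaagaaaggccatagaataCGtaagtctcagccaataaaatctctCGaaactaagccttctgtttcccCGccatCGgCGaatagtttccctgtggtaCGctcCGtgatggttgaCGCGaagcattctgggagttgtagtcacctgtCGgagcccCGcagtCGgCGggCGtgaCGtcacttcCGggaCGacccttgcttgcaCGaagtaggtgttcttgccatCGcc
Zfp560: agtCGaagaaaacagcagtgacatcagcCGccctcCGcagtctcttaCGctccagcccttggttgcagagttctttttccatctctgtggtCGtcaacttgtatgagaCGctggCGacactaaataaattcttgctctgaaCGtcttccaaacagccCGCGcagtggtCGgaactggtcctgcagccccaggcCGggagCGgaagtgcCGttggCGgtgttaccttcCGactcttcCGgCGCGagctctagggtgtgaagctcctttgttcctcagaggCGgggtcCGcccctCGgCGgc

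The Slc38a5 promoter held 10 CpG, the fewest of these 4, and the Tgfbi promoter 22. Zfp560 had 23 CpG and Ufsp2 29. Over 32851 RefSeq mouse promoters of the same length the median was 7 CpG, with quartiles at 3 and 20. Fewer CpG were found in 56.5% of all promoters than in that of Slc38a5, in 76.9% than in that of Tgfbi, in 78.5% than in that of Zfp560 and in 87.1% than in that of Ufsp2. The ratio of observed to expected CpG was 0.48 for Slc38a5, 0.73 for Tgfbi, 0.89 for Zfp560 and 1.21 for Ufsp2. So 3 of the 4 lie in the upper quartile for CpG, while Slc38a5 lies near the middle. The files hold no methylation data, and methylation of these promoters was not tested.

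Short motifs were searched on both strands of the same windows, as a description of letters and not of binding. Ufsp2 held the cAMP response element TGACGTCA starting 7 bases before the transcription start, present in 1.8% of all promoters, and 1 CCAAT box (37.4% of promoters). Slc38a5 held the E-box CACGTG 30 bases before the start (7.2%). The GC box GGGCGG (35.7%) occurred 2 times each in Slc38a5, Tgfbi and Zfp560 and was not found in Ufsp2. The ETS motif CCGGAAG (8.9%) occurred 1 time each in Ufsp2 and Zfp560. TATAAA (13.6%) was found in none of the 4 windows, and none of the matches found overlapped another.

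Slc38a5 (chromosome X, 8271381 to 8280179, plus strand, GRCm38.p6) encodes a sodium-coupled transporter of glutamine, histidine, serine and related amino acids. It had 0.122, 0.217 and 0.127 CPM in N1300T 49 A, B and C, 0.178, 0.0751 and 0.264 CPM in N1300T 81, and 0.0344, 0 and 0.0702 CPM in DKO, against 2.29, 1.46 and 1.12 CPM in Tet1KO. All 9 libraries without intact Tet2 lay below all 3 Tet1KO libraries. The means were 0.155 ± 0.0533, 0.172 ± 0.0944 and 0.0349 ± 0.0351 CPM in N1300T 49, N1300T 81 and DKO and 1.62 ± 0.606 CPM in Tet1KO. The log2 fold change was -3.30 ± 0.38 (SE) in N1300T and -5.31 ± 0.58 in DKO, both against Tet1KO, or 9.84-fold and 39.6-fold lower. The DKO value rested on 2, 0 and 4 counts in the 3 libraries, and a count of 0 in DKO B allows up to 0.073 CPM (3 counts). Without DKO C the log2 fold change in DKO was -6.15.

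Tgfbi (chromosome 13, 56609586 to 56639359, plus strand) encodes an extracellular matrix protein with fasciclin domains that binds collagen and integrins and is named for its induction by TGF-beta. Its levels were 0.509, 0.487 and 0.190 CPM in N1300T 49, 0.671, 0.413 and 0.396 CPM in N1300T 81 and 0.292, 0.487 and 0.351 CPM in DKO, against 2.17, 2.58 and 1.54 CPM in Tet1KO. The 3 groups without intact Tet2 overlapped one another, and none reached the lowest Tet1KO library. Means were 0.395 ± 0.178, 0.493 ± 0.154 and 0.377 ± 0.0997 CPM in N1300T 49, N1300T 81 and DKO, against 2.10 ± 0.524 CPM in Tet1KO. Tgfbi was 4.65-fold lower in N1300T (log2 fold change -2.22 ± 0.28) and 5.63-fold lower in DKO (-2.49 ± 0.34) than in Tet1KO.

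Serpina3m (chromosome 12, 104387157 to 104394259, plus strand) encodes a secreted serine protease inhibitor of a mouse gene cluster that corresponds to human SERPINA3. It stood at 0.387, 0.0542 and 0.221 CPM in N1300T 49, 0.138, 0.0751 and 0.176 CPM in N1300T 81 and 0.120, 0.0487 and 0.193 CPM in DKO, against 1.18, 1.63 and 1.33 CPM in Tet1KO. The lowest Tet1KO library was above every other library, while N1300T 49 A stood highest of the remaining 9. Means were 0.221 ± 0.166, 0.130 ± 0.0509 and 0.121 ± 0.0721 CPM in N1300T 49, N1300T 81 and DKO and 1.38 ± 0.228 CPM in Tet1KO. This was 7.92-fold lower in N1300T (-2.99 ± 0.39) and 10.8-fold lower in DKO (-3.43 ± 0.49). Of its transcript 50-mers, 19.07% also occur in other genes, most often Serpina3k, Serpina3c, Serpina3n and Serpina3a, so how reads were split among them is uncertain. In the annotation used for exon lengths, Serpina3m also overlaps exons of Serpina3k on the same strand. Serpina3k had 3 counts and Serpina3n 4 counts in all 12 libraries together.

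Ufsp2 (chromosome 8, 45975515 to 45996958, plus strand) encodes a cysteine protease that matures the ubiquitin-like protein UFM1 and removes it from its targets. It had 0.753, 0.975 and 0.823 CPM in N1300T 49, 0.671, 0.225 and 0.396 CPM in N1300T 81 and 0.825, 0.779 and 0.789 CPM in DKO, against 9.18, 3.47 and 3.25 CPM in Tet1KO. Tet1KO A stood far above Tet1KO B and C, which were still above every library of the other groups. Means were 0.850 ± 0.113, 0.431 ± 0.225 and 0.798 ± 0.0245 CPM in N1300T 49, N1300T 81 and DKO and 5.30 ± 3.36 CPM in Tet1KO. The log2 fold change was -3.12 ± 0.31 in N1300T and -2.71 ± 0.37 in DKO, or 8.67-fold and 6.55-fold lower than in Tet1KO. Without Tet1KO A it was -2.48 in N1300T and -2.08 in DKO. The median gene of chromosome 8 deviated from its mean over the libraries by -0.043 to -0.007 (log2) in the 9 other libraries, against 0.127, 0.062 and 0.044 in Tet1KO A, B and C. The part of this shift in the Ufsp2 values was not tested. Ufsp2 also overlaps exons of Ankrd37 on the opposite strand, and no source used here says whether counting used strand.

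Card6 (chromosome 15, 5096920 to 5116562, minus strand) encodes a protein with a caspase recruitment domain that has been linked to NF-kB signalling and innate immunity. It was at 0.590, 0.812 and 0.633 CPM in N1300T 49, 0.553, 0.620 and 1.01 CPM in N1300T 81 and 0.980, 0.900 and 0.965 CPM in DKO, against 4.19, 5.48 and 6.22 CPM in Tet1KO. The Tet1KO libraries stood far above the rest, and with 20 to 57 counts in each of the 9 others Card6 was among the better counted of the 6. Means were 0.678 ± 0.118, 0.728 ± 0.248 and 0.948 ± 0.0423 CPM in N1300T 49, N1300T 81 and DKO and 5.29 ± 1.03 CPM in Tet1KO. It was 7.58-fold lower in N1300T (-2.92 ± 0.19) and 5.57-fold lower in DKO (-2.48 ± 0.22). Of its transcript 50-mers, 9.25% also occur in other genes.

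Zfp560 (chromosome 9, 20345136 to 20385182, minus strand) encodes a zinc finger protein and lies in a cluster of zinc finger genes. It had 0.0407, 0.0542 and 0.0316 CPM in N1300T 49, 0.276, 0.244 and 0 CPM in N1300T 81 and 0.568, 0.560 and 0.526 CPM in DKO, against 1.05, 0.790 and 1.33 CPM in Tet1KO. From the lowest, the order was N1300T, DKO and Tet1KO, without overlap between them. Every DKO library lay below every Tet1KO library for 17.7% of tested genes, and N1300T and DKO did not overlap for 11.0%. Means were 0.0422 ± 0.0113, 0.174 ± 0.151 and 0.551 ± 0.0219 CPM in N1300T 49, N1300T 81 and DKO and 1.06 ± 0.270 CPM in Tet1KO. It was 11.7-fold lower in N1300T (-3.55 ± 0.48) and 1.92-fold lower in DKO (-0.94 ± 0.45) than in Tet1KO. N1300T 49 held 2, 2 and 1 counts in its libraries, and the 0 in N1300T 81 C allows up to 0.0659 CPM.

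**Figure D1:**
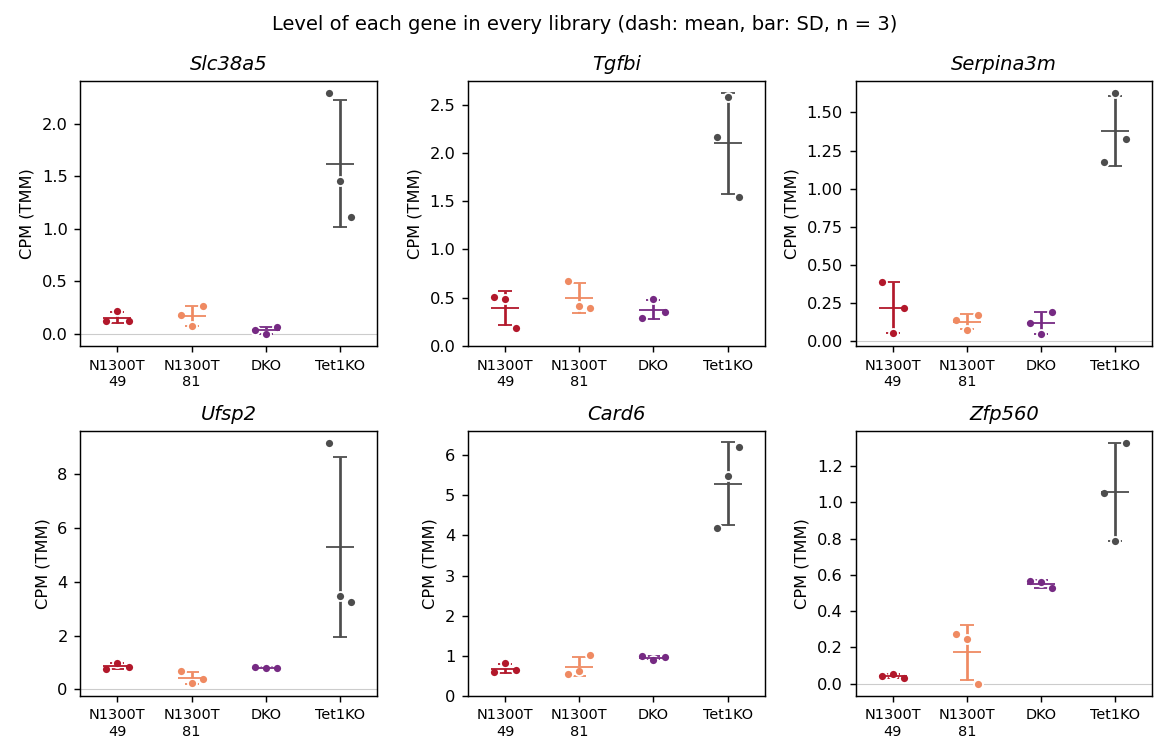
Level of each of the 6 genes in CPM (TMM factors, linear axis) in every library of N1300T 49, N1300T 81, DKO and Tet1KO, with the mean as a dash and the SD as a bar (n = 3). The 3 Tet1KO libraries lie above all others for each gene, Ufsp2 has 1 Tet1KO library at 9.18 CPM, and Zfp560 has DKO at 0.526 to 0.568 CPM between N1300T and Tet1KO.

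Against Tet1KO, 6 of the 6 genes were more than 2-fold lower in N1300T, where 1.99% of all tested genes were, and 5 of 6 in DKO, where 2.22% were. Every N1300T library was below every Tet1KO library for all 6, as for 8.09% of tested genes, and every DKO library for all 6, as for 17.7%. These counts follow from how the genes were chosen and nothing is read from them. The median log2 fold change of the 6 was -3.05 in N1300T and -2.60 in DKO, beside 0.002 and -0.005 for all tested genes. Ranked from the most negative fold change in N1300T, Zfp560 stood at place 11, Slc38a5 at 14, Ufsp2 at 19, Serpina3m at 22, Card6 at 25 and Tgfbi at 47 of 16014. In DKO the places were 3 for Slc38a5, 8 for Serpina3m, 19 for Ufsp2, 26 for Tgfbi, 27 for Card6 and 398 for Zfp560. Both comparisons share the Tet1KO libraries. In bulk RNA, fewer cells that express a gene and less RNA of it per cell cannot be told apart.

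The sets 49 and 81 of N1300T are given side by side against Tet1KO. The log2 fold changes were -3.37 in 49 and -3.23 in 81 for Slc38a5, -2.36 and -2.08 for Tgfbi, and -2.57 and -3.41 for Serpina3m. They were -2.63 in 49 and -3.60 in 81 for Ufsp2, -2.97 and -2.87 for Card6, and -4.55 and -2.55 for Zfp560. Each of the 6 was thus more than 2-fold lower in both sets. Single libraries moved some sizes: Serpina3m in N1300T was -3.38 without N1300T 49 A, and in N1300T 81 Ufsp2 was -4.09 without N1300T 81 A and Zfp560 -2.01 without N1300T 81 C.

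**Figure D2:**
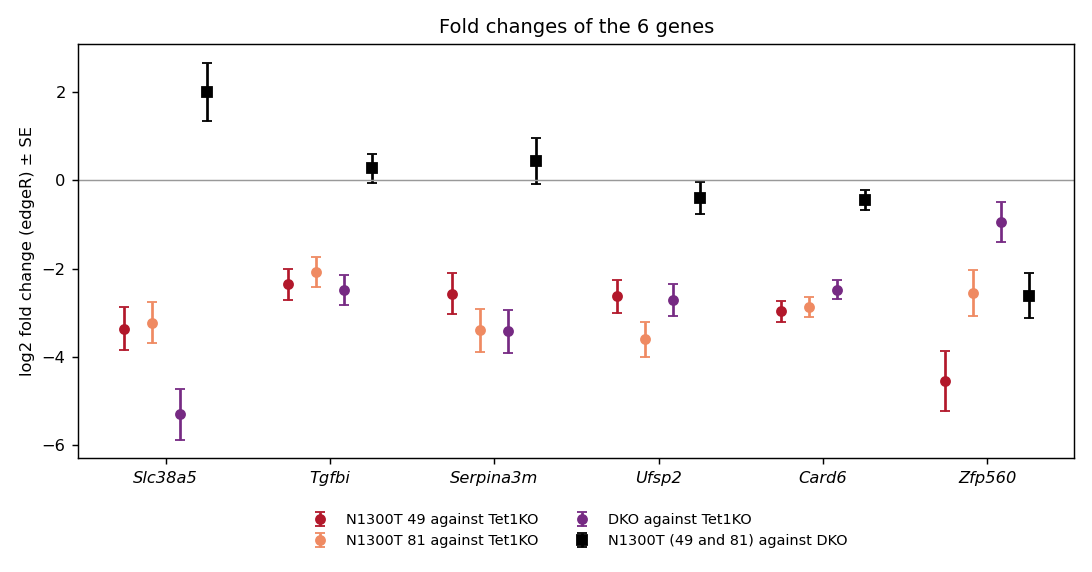
Log2 fold change of each gene (edgeR, bars are the SE) in N1300T 49, N1300T 81 and DKO, each against Tet1KO, and in N1300T (49 and 81) against DKO as black squares. For Zfp560 the DKO point at -0.94 lies well above both N1300T points and the black square lies at -2.61, whereas for Tgfbi, Serpina3m, Ufsp2 and Card6 the squares lie between -0.44 and 0.44.

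The 6 genes were chosen by low levels in both N1300T and DKO against Tet1KO, so both groups of this comparison entered the choice. Their difference was not itself chosen on, but a choice of genes low in both favours small differences. It was tested with edgeR's quasi-likelihood test in a fit of all tested genes, and its p-values and intervals are not independent of the choice. Zfp560 was the only one of the 6 called. It averaged 0.108 ± 0.120 CPM in N1300T (n = 6) and 0.551 ± 0.0219 CPM in DKO (n = 3), 6.12-fold lower in N1300T (log2 fold change -2.61 ± 0.51, 95% interval -3.69 to -1.54, edgeR adjusted p 0.0089), with all 6 N1300T libraries below all 3 DKO libraries. In this comparison 3.73% of tested genes were called, and 2.02% were called lower. The call rests on few libraries: without DKO A the edgeR adjusted p was 0.0551 and without DKO C it was 0.056, while the log2 fold change stayed between -2.84 and -2.34 under 18 alternatives.

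Slc38a5 showed the opposite order. Its N1300T libraries had 0.0751 to 0.264 CPM and its DKO libraries 0 to 0.0702 CPM, without overlap, but the lowest N1300T library and the highest DKO library held 4 counts each. The log2 fold change of 2.01 ± 0.67 in N1300T against DKO (95% interval 0.605 to 3.41) missed the threshold (edgeR adjusted p 0.0986). It passed when no filter on low counts was used (edgeR adjusted p 0.0233). DESeq2 gave it no adjusted p (unadjusted p 0.00383), and it did not pass the filter in a fit of only the groups compared. The level in DKO is set by 6 counts in all, so the depth limits this comparison.

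The other 4 genes were not called in N1300T against DKO. Their intervals are given as a description, since the choice of genes low in both groups favours small differences. Tgfbi gave a log2 fold change of 0.28 ± 0.33 (95% interval -0.427 to 0.98, edgeR adjusted p 0.705) and Serpina3m 0.44 ± 0.53 (-0.672 to 1.55, 0.702). Like Slc38a5, Serpina3m had no adjusted p from DESeq2 (unadjusted p 0.399) and did not pass the filter in a fit of only the groups compared. Its place among the tested genes thus rests on its Tet1KO libraries. Ufsp2 gave -0.40 ± 0.36 (-1.17 to 0.358, edgeR adjusted p 0.592) and Card6 -0.44 ± 0.22 (-0.905 to 0.017, 0.274). The Card6 and Tgfbi intervals stayed within 2-fold in either direction, that of Tgfbi only narrowly, while those of Serpina3m and Ufsp2 reached beyond it. Without DKO B the Tgfbi value was 0.478. Because of the choice, these intervals cannot exclude a 2-fold difference. The median of the 6 was -0.06, beside -0.002 for all tested genes. Groups did not overlap for 2 of the 6, Slc38a5 and Zfp560, against 11.0% of all tested genes.

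With each N1300T set tested alone against DKO, Zfp560 was called in N1300T 49 (log2 fold change -3.61 ± 0.72, edgeR adjusted p 0.0168) and not in N1300T 81 (-1.61 ± 0.53, 0.125). The call in N1300T 49 was lost without N1300T 49 A or B or DKO A or C (edgeR adjusted p 0.0572 to 0.116). None of the other 5 was called in either set, where 2.29% of tested genes were called for N1300T 49 and 2.37% for N1300T 81. Slc38a5 and Serpina3m did not pass the filter in fits of only the groups compared. Libraries of N1300T 49 and DKO did not overlap for 3 of the 6, Slc38a5, Card6 and Zfp560, as for 23.6% of all tested genes. Those of N1300T 81 and DKO did not overlap for 3 of the 6, Slc38a5, Ufsp2 and Zfp560, as for 24.0% of tested genes. In N1300T 81 Ufsp2 was 1.85-fold lower than in DKO (-0.89 ± 0.44, edgeR adjusted p 0.311).

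N1300T 49 against N1300T 81 compares 2 sets under 1 genotype label. None of the 6 genes was called by edgeR after adjustment, where 0.362% of tested genes were. The largest difference was that of Zfp560, lower in N1300T 49 (log2 fold change -2.00 ± 0.84, edgeR p 0.0284, adjusted p 0.598). Next was Ufsp2, higher in N1300T 49 (0.97 ± 0.45, edgeR p 0.0446, adjusted p 0.645). Slc38a5, Serpina3m and Zfp560 did not pass the filter in a fit of these 2 sets alone. DESeq2 called none of the 6 either. Libraries of Ufsp2 had 0.753 to 0.975 CPM in N1300T 49 and 0.225 to 0.671 CPM in N1300T 81.

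To compare the genes with one another, CPM was divided by the length of the joined exons (CPM per kb). In N1300T (n = 6) Ufsp2 stood at 0.145 ± 0.0634, Tgfbi at 0.118 ± 0.042, Card6 at 0.115 ± 0.0288, Serpina3m at 0.102 ± 0.0703 and Slc38a5 at 0.073 ± 0.0309 CPM per kb, followed by Zfp560 at 0.0212 ± 0.0235. In DKO the order was Ufsp2 (0.181 ± 0.00556), Card6 (0.155 ± 0.00694), Zfp560 (0.108 ± 0.00431), Tgfbi (0.0999 ± 0.0264), Serpina3m (0.0702 ± 0.042) and Slc38a5 (0.0156 ± 0.0157). In Tet1KO it was Ufsp2 (1.2 ± 0.763), Card6 (0.868 ± 0.168), Serpina3m (0.802 ± 0.133), Slc38a5 (0.724 ± 0.271), Tgfbi (0.557 ± 0.139) and Zfp560 (0.208 ± 0.0529). In Tet1KO only Zfp560 was apart from its neighbour in this order by more than the sum of their SDs. Zfp560 was thus lowest of the 6 in N1300T and in Tet1KO but in the middle in DKO. In N1300T each gene differed from the next in the order by less than the sum of their SDs. In DKO Ufsp2 was apart from Card6 and Card6 from Zfp560 by more than that sum, and the lower neighbours were not.

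Over the 12 libraries Pearson's r of log2 CPM was 0.805 to 0.869 between any pair among Slc38a5, Tgfbi, Serpina3m, Ufsp2 and Card6. Zfp560 correlated less with them, from 0.33 with Slc38a5 to 0.671 with Card6. These points share the contrast with Tet1KO that chose the genes, and r is given only as a description. Among 13018 other genes with at least 1 CPM in the highest group, those most like each were named by the same measure. Those nearest to Ufsp2 were Cfap97 (r 0.966), Palld (0.965) and Tti1 (0.965), of which Cfap97 lies 0.17 Mb and Palld 15.51 Mb from Ufsp2 on chromosome 8. Slc15a2, a peptide transporter, was close to Zfp560 (r 0.922), as were Irgm2 (0.934) and Cpt2 (0.927). Slc15a2 had 0.527, 0.65 and 3.70 CPM in N1300T 49, N1300T 81 and DKO and 4.55 CPM in Tet1KO, so that DKO lay near Tet1KO.

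For the remaining genes the closest were Klk10 (0.958) and Mypn (0.954) for Slc38a5, and Snx3 (0.953), Dact2 (0.953) and Klk13 (0.947) for Tgfbi. Serpina3m was closest to Eya1 (0.955), Plpp1 (0.951) and Xlr3c (0.949). Card6 was closest to Mfsd9 (0.972), Cds2 (0.971) and Snx9 (0.958). The sizes of the differences varied widely among these: Eya1 had a log2 fold change of -2.04 in N1300T and -2.20 in DKO against Tet1KO, and Plpp1 -0.23 and -0.25.

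The 3 nearest protein-coding genes on each side of each gene, 36 in all, were examined to see whether the low levels extended over a region. Of these, 16 passed the filter. In N1300T against Tet1KO 1 was called higher and 3 lower, where 15.7% of tested genes were called in either direction. Ebp, a sterol isomerase gene near Slc38a5, fell (-0.49 ± 0.08, edgeR adjusted p 0.000263), as did Snx25 near Ufsp2 (-0.66 ± 0.21, 0.0387) and Zfp26 near Zfp560 (-0.31 ± 0.09, 0.0281). Gsc, a homeobox gene beyond Serpina3m, rose (1.26 ± 0.31, edgeR adjusted p 0.00885). Without Tet1KO A only Ebp and Gsc were called.

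In DKO against Tet1KO, where 15.0% of tested genes were called, Ebp fell (-0.58 ± 0.09, edgeR adjusted p 0.000276) and Pdlim3, on the left of Ufsp2, rose (2.00 ± 0.53, 0.0173). Pdlim3 was not called without Tet1KO A, and with library size alone Zfp266 near Zfp560 was also called higher. In N1300T against DKO 1 of the 16, Porcn near Slc38a5, was called (0.27 ± 0.07, edgeR adjusted p 0.0489), and not with RLE factors or library size alone. None of the 16 was called between N1300T 49 and N1300T 81 by edgeR. Rpl37, a ribosomal protein gene 0.1 kb from Card6, gave 0.03 ± 0.07 in N1300T and -0.20 ± 0.08 in DKO against Tet1KO and was not called. The lowest of the 16 log2 fold changes against Tet1KO was -0.66 in N1300T and -0.58 in DKO. The 6 genes between them had -0.94 or below, which follows from how they were chosen, and nothing is read from that gap. Neighbours that did not pass the filter give no value.

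**Figure D3:**
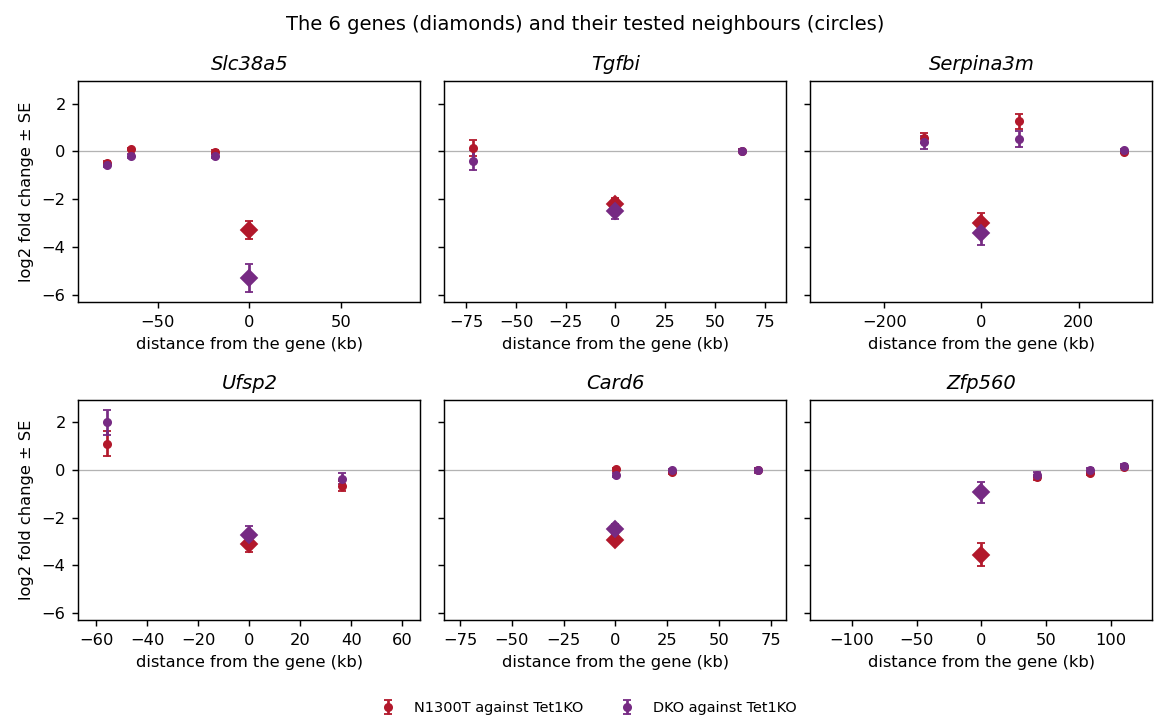
Log2 fold change (bars are the SE) in N1300T and in DKO, both against Tet1KO, of each of the 6 genes (diamonds at 0) and of those of its 6 nearest protein-coding neighbours that passed the filter (circles), by distance in kb from the gene. The circles lie at or above -0.66, and the diamonds lie below them, with Zfp560 in DKO closest at -0.94. The lower place of the diamonds follows from how the 6 genes were chosen.

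The pathways the genes belong to were examined through lists of their other members. Of 7 other genes of UFM1 conjugation (the modifier, its enzymes and the second protease gene Ufsp1), 1 was called in N1300T against Tet1KO, Cdk5rap3, a partner of the UFM1 ligase (0.18 ± 0.05, edgeR adjusted p 0.0249), and it was not called without Tet1KO A. None of the 7 was called in DKO against Tet1KO by edgeR. Cdk5rap3 was also the only one called in N1300T against DKO (0.24 ± 0.05, edgeR adjusted p 0.0162). Their median log2 fold change was 0.09 in N1300T (0.04 without Tet1KO A) and -0.07 in DKO against Tet1KO, beside 0.002 and -0.005 for all tested genes. Ufsp1 had 4.10 ± 0.31 CPM in N1300T and 3.34 ± 0.081 CPM in DKO, against 3.49 ± 0.294 CPM in Tet1KO.

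Among 9 other tested amino acid transporters of the SLC38 family, 4 fell and none rose in N1300T against Tet1KO, and 4 fell and 2 rose in DKO. Slc38a8, another glutamine transporter of the family, fell in N1300T (-1.50 ± 0.33, edgeR adjusted p 0.00452) and in DKO (-1.93 ± 0.41, adjusted p 0.00353). It averaged 0.299 ± 0.0859 CPM in N1300T and 0.229 ± 0.102 CPM in DKO, against 0.860 ± 0.195 CPM in Tet1KO. The abundant Slc38a1 fell by smaller amounts, to 115 ± 6.9 CPM in N1300T and 129 ± 1.15 CPM in DKO, against 162 ± 1.92 CPM in Tet1KO (log2 fold change -0.49 ± 0.05, edgeR adjusted p 1.6e-06, and -0.32 ± 0.05, adjusted p 0.000578). Slc38a4 (-0.35 ± 0.05 in N1300T and -0.32 ± 0.05 in DKO) and Slc38a7 (-0.21 ± 0.06 and -0.26 ± 0.06) also fell in both, though Slc38a7 was called in neither without Tet1KO A. In all 4 of 9 were called in N1300T and 6 of 9 in DKO, where 15.7% and 15.0% of all tested genes were. The median of the 9 was -0.04 in N1300T and 0.03 in DKO, and -0.09 and -0.03 without Tet1KO A. Slc38a6 was the only one called in N1300T against DKO (-0.38 ± 0.08, edgeR adjusted p 0.0149), and Slc38a4 the only one in N1300T 49 against N1300T 81 (-0.37 ± 0.05, adjusted p 0.00151). With library size alone as the scaling Slc38a2 was also called higher in N1300T against Tet1KO and Slc38a1 lower in N1300T against DKO, and without Tet1KO A 3 fell in each comparison with Tet1KO and 1 rose in DKO.

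**Figure D4:**
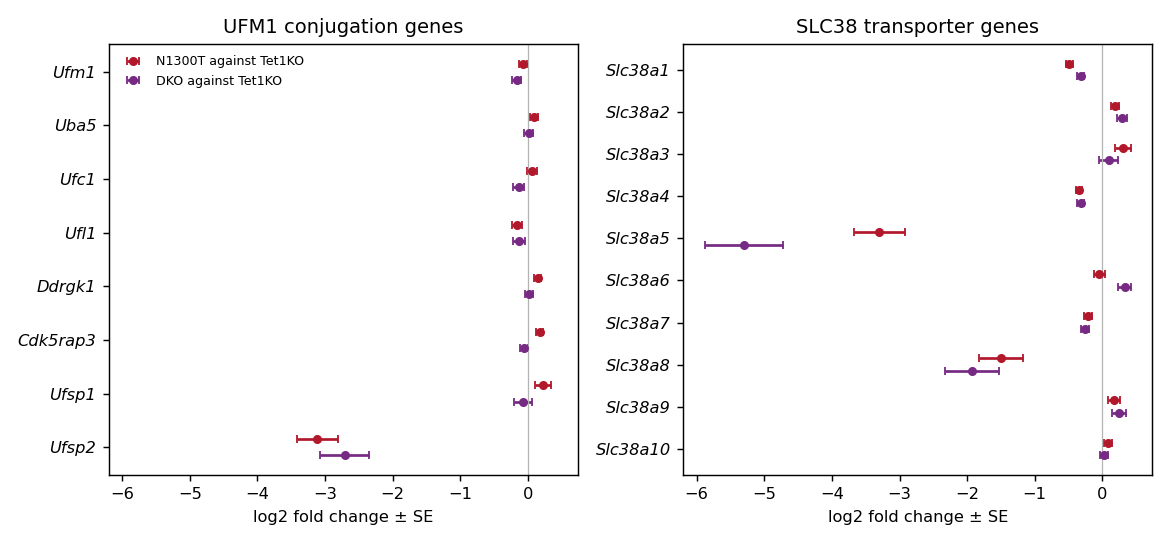
Log2 fold change (bars are the SE) in N1300T and in DKO, both against Tet1KO, of the genes of UFM1 conjugation and of the SLC38 transporters that passed the filter, Ufsp2 and Slc38a5 included. Ufsp2 at -3.12 and -2.71 lies far from the other UFM1 genes, and among the SLC38 genes Slc38a8 at -1.50 and -1.93 lies between Slc38a5 and the rest. Ufsp2 and Slc38a5 were chosen by these values, so nothing is read from their distance to the other genes.

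Of 22 other genes of the Serpina cluster only 2 passed the filter, Serpina3h and Serpina3i, and edgeR called neither in N1300T or DKO against Tet1KO, in N1300T against DKO or between the N1300T sets. Serpina3i, 117.6 kb from Serpina3m, had log2 fold changes of 0.57 ± 0.23 in N1300T and 0.38 ± 0.26 in DKO against Tet1KO. Of 3 other fasciclin domain genes only Stab2 was tested, and it was not called in those 4 comparisons. Among 13 other genes of TGF-beta signalling and its targets, Tgfbr3, a co-receptor, rose in N1300T (0.96 ± 0.14, edgeR adjusted p 0.000166) and in DKO (1.29 ± 0.16, adjusted p 3.1e-05) against Tet1KO. The ligand gene Tgfb2 rose in DKO (1.25 ± 0.23, edgeR adjusted p 0.00135) and so did the receptor gene Tgfbr2 (0.94 ± 0.25, 0.0186), though Tgfbr2 was not called without Tet1KO A. Tgif1, a repressor of the pathway, fell in N1300T (-0.27 ± 0.05, edgeR adjusted p 0.00149). In all 1 rose and 1 fell in N1300T, 3 rose and none fell in DKO, and the medians were 0.08 and 0.05 (0.07 and 0.03 without Tet1KO A). Against DKO, Tgfb2 (-0.71 ± 0.19, edgeR adjusted p 0.0406) and Tgif1 (-0.23 ± 0.05, 0.0214) were lower in N1300T.

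Among 16 other genes of CARD proteins and NF-kB, Relb, an NF-kB subunit, rose in N1300T against Tet1KO (0.38 ± 0.07, edgeR adjusted p 0.000677). Card10 fell in N1300T (-0.32 ± 0.10, edgeR adjusted p 0.0402) and in DKO (-0.40 ± 0.12, 0.0255), and neither was called without Tet1KO A. The medians were -0.03 in N1300T and 0.08 in DKO, and -0.05 and 0.003 without Tet1KO A. A list of zinc finger genes taken as near Zfp560 on chromosome 9, whose positions were not all checked, held 10 other tested genes. Of these, Zfp809 rose (0.22 ± 0.07, edgeR adjusted p 0.0319) and Zfp26 fell in N1300T, neither of them without Tet1KO A. None was called in DKO by edgeR, except that Zfp266 was called higher with library size alone. Of 9 co-repressors of KRAB zinc finger proteins, Trim28 among them, only Cbx1 was called (0.15 ± 0.05 in N1300T, edgeR adjusted p 0.0444), and not without Tet1KO A. The medians were 0.008 in N1300T and 0.01 in DKO for the zinc finger genes (0.016 and -0.011 without Tet1KO A), and -0.03 and -0.03 for the co-repressors, the last 0.01 with library size alone (-0.016 and -0.024 without Tet1KO A). None of these 3 lists had a called gene in N1300T against DKO or in N1300T 49 against N1300T 81 by edgeR, Zfp560 itself apart.

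Markers of other cell types that culture could hold were summed, since Tgfbi and Serpina3m are secreted proteins of other tissues. The 11 fibroblast markers summed to 12.43 to 13.91, 13.34 to 16.92 and 14.16 to 16.32 CPM in N1300T 49, N1300T 81 and DKO and to 11.93 to 13.8 CPM in Tet1KO. The matrix genes Lum, Dcn and Postn held 2, 0 and 2 counts over the 6 N1300T libraries and 4, 4 and 10 counts over the 3 DKO libraries, against 5, 8 and 8 counts over the 3 Tet1KO libraries. Of the 5 fibroblast markers tested, the receptor gene Pdgfrb fell in N1300T (-0.49 ± 0.15, edgeR adjusted p 0.0384) and Pdgfra rose (0.57 ± 0.16, adjusted p 0.0216), and the collagen gene Col1a1 rose in DKO (1.04 ± 0.29, adjusted p 0.0237), all against Tet1KO. Pdgfrb had 3.25 ± 1.05 CPM in N1300T and 3.11 ± 0.269 CPM in DKO, against 4.47 ± 0.40 CPM in Tet1KO. None of these 3 was called without Tet1KO A, where Thy1 was called higher in N1300T.

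The 11 primitive and visceral endoderm markers summed to 10.6 to 12.17, 7.48 to 8.372 and 8.973 to 10.66 CPM in N1300T 49, N1300T 81 and DKO and to 6.984 to 7.842 CPM in Tet1KO. Afp was at 0 and Ttr had 3 counts in all. Of 8 tested, 3 rose and 2 fell in N1300T against Tet1KO, and 1 rose and 1 fell in DKO. Hnf4a, a hepatocyte and endoderm transcription factor, fell in both, to 0.161 ± 0.125 CPM in N1300T and 0.456 ± 0.0949 CPM in DKO, against 1.33 ± 0.303 CPM in Tet1KO (log2 fold changes -3.16 ± 0.41, edgeR adjusted p 4.81e-05, and -1.54 ± 0.43, adjusted p 0.0223). Its call in DKO was lost without Tet1KO A. Gata4, an early endoderm factor, rose in N1300T (1.42 ± 0.18, edgeR adjusted p 4.47e-05) and in DKO (1.47 ± 0.20, adjusted p 9.1e-05), and was higher in N1300T 49 than in N1300T 81 (1.35 ± 0.18, adjusted p 0.00107). In N1300T Gata6, another endoderm factor, rose (0.89 ± 0.25, edgeR adjusted p 0.0197), as did Pdgfra, and Dab2 fell (-0.87 ± 0.23, adjusted p 0.0146), none of these 3 without Tet1KO A.

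The 9 trophoblast markers summed to 132.9 to 143.1, 148.5 to 157.4 and 171 to 178.5 CPM in N1300T 49, N1300T 81 and DKO and to 145.8 to 153.2 CPM in Tet1KO, with Elf5 at 6 counts in all. Of 7 tested, the transcription factor gene Cdx2 rose in N1300T (1.67 ± 0.20, edgeR adjusted p 1.73e-05) and in DKO (1.86 ± 0.21, adjusted p 1.81e-05), and the keratin genes Krt8 and Krt18 rose in DKO (0.48 ± 0.09, adjusted p 0.0014, and 0.46 ± 0.12, 0.0168), Krt18 not without Tet1KO A. Krt8 and Krt18 were lower in N1300T than in DKO (-0.53 ± 0.08, edgeR adjusted p 0.000775, and -0.70 ± 0.10, 0.000942). Among the embryonic stem cell markers, Tfcp2l1 and Tbx3 fell in DKO against Tet1KO (-0.30 ± 0.06, edgeR adjusted p 0.0022, and -0.33 ± 0.09, 0.0195). The part of other cell types in the levels of the 6 genes was not tested.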

How the data were processed

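The values are read counts per gene symbol, deposited by the authors as 1 table of whole numbers for the 12 libraries, with no normalization. The build mm10 and the tool DESeq2 are named per the submitters' processing notes. Not given in the sources used here are the aligner, counter, annotation and strand setting. Low counts were more often even than odd (5990 values of 1, 20282 of 2, 3467 of 3 and 9469 of 4 in the deposited table), and if both mates added a count, counting error is understated. Counting limits cover counting error only.

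A single edgeR 4.0.16 quasi-likelihood fit in R 4.3.3 (with limma 3.58.1) took all 12 libraries, with TMM factors (0.979 to 1.02), filterByExpr by group and no replicate block. It had 8 residual and 9.11 prior degrees of freedom and a biological coefficient of variation of 0.0859, and was tested on simulated data. A Benjamini-Hochberg adjusted p under 0.05 made a call, over the 16014 tested genes, which held 99.97% of the counts. N1300T is the mean of sets 49 and 81, weighted equally, so its error comes from libraries and not from the 2 sets. Alternatives were RLE factors, library size alone, no filter, DESeq2 1.42.0, a replicate block, halved counts, only the groups compared and leaving out each library. For the gene lists and neighbours, the scaling alternatives and leaving out Tet1KO A were chosen after seeing the data.

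The 6 genes and the gene lists were chosen with earlier results of these data known. Of the lists, genes called in a comparison were named, up to 4 by adjusted p for each list and comparison. Neighbours were the 3 nearest protein-coding genes on each side in the RefSeq table. Genes of like pattern were the 3 with the highest r over log2 CPM with a prior count of 2, of which 1 is not reported here. Thy1, Zfp266, Ufsp1, Serpina3i, Rpl37 and the genes set against each other among those of like pattern were picked out after their values were seen. Symbols were looked up in RefSeq GRCm38.p6, the assembly named mm10, and promoters come from RefSeq on that build. Exon lengths and shared 50-mers come from its reference annotation. The list genes Odr4 and Ccn2 had no match in the table.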

Additional observations from a re-analysis of the deposited data

Results flagged for a closer look

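Zfp560 stood at unlike distances from Tet1KO in the N1300T and DKO libraries. Both groups entered the choice of the gene, so the p-values below are not independent of it. DKO is 1 set of libraries, so genotype cannot be told apart from other properties of those cells. The log2 fold change of Zfp560 against Tet1KO was -3.55 ± 0.48 in N1300T and -0.94 ± 0.45 in DKO. The difference of these effects is the contrast of N1300T with DKO, -2.61 ± 0.51 (SE, edgeR adjusted p 0.0089), in which the Tet1KO libraries cancel. This call was lost without DKO A (edgeR adjusted p 0.0551) or DKO C (0.056). N1300T 81 alone was not called against DKO (edgeR adjusted p 0.125). Between N1300T 49 and N1300T 81, sets under the same genotype label, the difference was -2.00 ± 0.84 (edgeR adjusted p 0.598). All 6 N1300T libraries lay below all 3 DKO libraries. In N1300T 81 the libraries A and B had 0.276 and 0.244 CPM and C had 0, while the 3 libraries of N1300T 49 held 1 or 2 counts each.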

How the results depend on the processing

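The genes called in N1300T against DKO numbered 597, and 1481 without the count filter, 1088 with DESeq2, 1497 with the replicate block and 107 to 1053 with a library left out (lowest without DKO C; also over 1.5 times apart without N1300T 49 A or B, N1300T 81 B or C, or DKO A or B). For N1300T 49 against DKO 366 became 1044, 810 and 1011 under the first 3 settings, 741 with only the groups compared and 47 to 552 with a library left out. For N1300T 81 against DKO 379 became 1199, 748, 1110 and 91 to 933. For N1300T 49 against N1300T 81 58 became 244, 108 and 105. For N1300T and DKO against Tet1KO, 2520 and 2399 became 1388 to 2575 and 1386 to 2575 with a library left out, lowest in both without Tet1KO A. With library size alone the split moved to 194 higher and 473 lower in N1300T against DKO (273 and 324 with TMM), 98 and 196 in N1300T 49 against DKO (206 and 160), 133 and 267 in N1300T 81 against DKO (166 and 213) and 1522 and 865 in DKO against Tet1KO (1259 and 1140).

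The correlation of deviations between libraries with the same letter was -0.042 to 0.312 over 18 pairs. It was above 0.1 in 7 of the 9 pairs without DKO (0.066 to 0.312) and in 0 of the 9 with DKO (-0.042 to 0.037), and 22 of 36 matches were best with their own letter. All 3 letters passed 0.1 for N1300T 81 with Tet1KO alone (0.132 to 0.312). The replicate block changed no call of the 6 genes.

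Signs turned for differences near 0. Serpina3m in N1300T 81 against DKO was 0.02, and -0.006 with library size alone, -0.061 with counts halved and -0.284 to 0.509 with a library left out. With a library left out, N1300T 49 against N1300T 81 ran from -0.503 to 0.287 for Slc38a5, -0.259 to 0.2 for Card6 and -0.511 to 0.013 for Tgfbi, and N1300T 49 against DKO from -0.095 to 0.429 for Tgfbi and -0.027 to 0.176 for Ufsp2. The cause was not tested. In N1300T 81 against DKO, Slc38a5, Ufsp2 and Zfp560 were called without the filter (edgeR adjusted p 0.0424, 0.0383 and 0.0109) and Zfp560 with DESeq2 (adjusted p 0.045). DESeq2 gave no adjusted p for Zfp560 in N1300T against DKO (log2 fold change -2.67, unadjusted p 6.42e-07). Of 897 values of the 6 genes under these alternatives, 882 kept their direction. That total includes the contrasts with Tet1KO on which the genes were chosen, where no sign turned. The 15 that turned were all between N1300T sets and DKO or between the sets 49 and 81. Depth limits Slc38a5 in DKO and Zfp560 in N1300T 49, which rest on 0 to 4 counts a library.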
